A study of Mus musculus with 4 samples.

Results

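The Ces1 genes are 8 carboxylesterase genes, Ces1a to Ces1h, that lie side by side on mouse chromosome 8 (mm10, 93020214 to 93379725, a span of 360 kb, all on the minus strand). They were taken by symbol from the 52636 genes of a deposited RNA-seq table of whole mouse lung, and all 8 were found. The cluster was picked because Ces1c was much higher in the knockout, so its values in that comparison are given as a description and carry no test. The study profiled total lung of C57BL/6 embryos at embryonic day 14.5, when the airway tree is still branching. It has 2 libraries labelled Control (genotype wild type) and 2 labelled Yap CKO (a conditional knockout of Yap), which the series title describes as specific to the epithelium. Yap is a transcriptional coactivator that Hippo signalling restrains. No label gives the Cre driver or the deleted exons, or says whether each library is a different embryo or litter. The p-values therefore reflect the spread among these libraries. The sex-linked genes given below differ between the 2 controls, so these were not the same embryo, and for the Yap CKO pair the spread may be technical.

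Carboxylesterases are serine hydrolases that cut ester bonds in fats, cholesterol esters and many drugs. Most are held in the lumen of the endoplasmic reticulum, chiefly in liver, gut, fat and lung. The Ces1 group was multiplied by tandem duplication in rodents. Ces1c encodes the esterase that the rodent liver secretes into blood plasma, Ces1d and Ces1f encode hydrolases of stored triacylglycerol, and Ces1e encodes egasyn, the anchor of beta-glucuronidase in the endoplasmic reticulum.

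The libraries held 17756301 to 21333878 reads counted to genes. Values below are normalized counts, that is, reads divided by 1 factor per library, and 3 reads, the number that a count of 0 still allows, equal 2.80 to 3.51 normalized counts. The controls had 5686 and 3467 for Yap1 itself, and the Yap CKO libraries 3209 and 4483, so the groups overlapped and this gene does not check the labels (log2 change -0.23 ± 0.25 SE, limma adjusted p = 0.683). The labelled tissue was checked on 10 lung genes, all measured, whose summed level ran from 23172 to 24977. Libraries stood apart in 2 other respects. The sum of 14 heart muscle markers was 1779 in control 1 against 49483 in its replicate, and 11095 against 1995 within the Yap CKO pair. Control 1 differed from the other libraries in its sex-linked genes, with Xist at 42.6 against 42729 to 50045 and Ddx3y at 1726 against 5.77 to 16.4.

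The embryonic lung expressed a small part of the cluster strongly. Ces1d was the most abundant member per kilobase of exon in every library, at 207 and 152 normalized counts per kb in the controls and 330 and 297 in Yap CKO. In controls Ces1f (41.0 and 38.1 per kb) and Ces1g (12.2 and 10.3 per kb) followed. The remaining 5 members stayed at or below 4.81 per kb in both controls, and their order differed between the controls. In both Yap CKO libraries Ces1c, at 83.6 and 58.2 per kb, took the place after Ces1d, ahead of Ces1f at 31.9 and 40.01. With coding length in place of exon length the first 3 places were held by the same genes in each library.

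**Figure D1:**
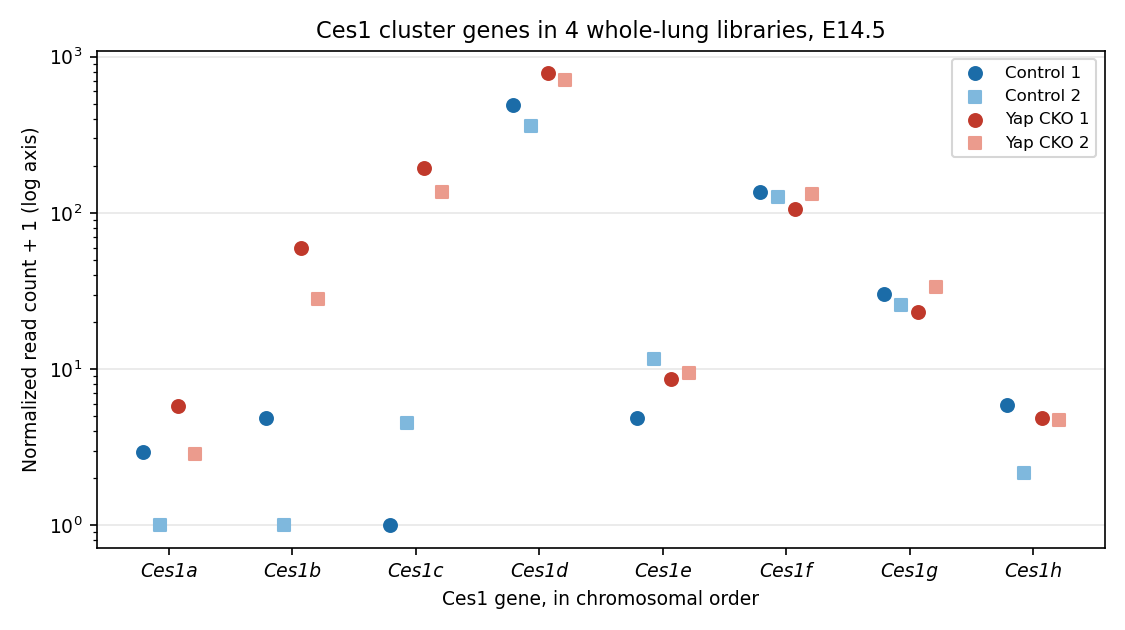
Normalized read count plus 1 (log axis) of the 8 Ces1 genes in chromosomal order, 1 point per library, with circles for replicate 1 and squares for replicate 2. Ces1c, Ces1b and Ces1d are higher in both Yap CKO libraries than in both controls, and the groups overlap for the other 5 genes.

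Ces1c (ENSMUSG00000057400, chromosome 8, 93099015 to 93131283), the plasma esterase gene, was close to absent in control lungs. It had 0 reads in control 1 and 3 in control 2, against 202 in Yap CKO 1 and 145 in its replicate. In normalized counts these are 0 and 3.51 against 194 and 135, so both knockout libraries were far above both controls. The means were 1.75 ± 2.48 in control and 165 ± 41.8 in Yap CKO (SD, n = 2), and the log2 difference of normalized counts plus 1 was 6.26. The ratio of reads, summed over the 2 libraries of each group, was 103. Its exact 95% counting interval of 35.1 to 503 is wide because it rests on 3 control reads. Intervals and floors of this kind hold the error of counting alone, because PCR copies are not independent molecules.

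Ces1b (ENSMUSG00000078964, chromosome 8, 93056728 to 93080017) is the next gene along the chromosome, and its counts had the same shape at a lower level. It had 4 reads in control 1 and 0 in control 2, against 61 in Yap CKO 1 and 29 in the other knockout library. Group means were 1.94 ± 2.74 and 42.8 ± 22.4 normalized counts (SD, n = 2). The log2 difference was 4.21 and the ratio of reads 20.1 (interval 7.58 to 75.3). Both knockout libraries lay above both controls, and the knockout libraries themselves differed by more than counting error. Yap CKO 1 over Yap CKO 2 was 2.17 for Ces1b (1.37 to 3.50) and 1.44 for Ces1c (1.155 to 1.79). For each 100 reads of Ces1c there were 30.2 reads of Ces1b in Yap CKO 1 and 20.0 in its replicate.

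Ces1b and Ces1c are also the closest pair of the cluster in sequence, which bears on their counts. Their main transcripts in GENCODE M21 were identical at 91.4% of 1822 aligned bases, against 73.8% to 82.0% for the other 27 pairs. Of all 50-base windows of the Ces1c transcript, 16.98% also occur in a transcript of another gene, mostly Ces1b (190 of 1779 windows) and the pseudogene Gm45910 (71 windows). Of the 100-base windows of Ces1c, 1.39% are shared, all with Ces1b. For Ces1b the shares were 11.6% and 1.29%. How the authors treated reads that match several genes is unstated in the sources used here, so part of the reads of each could belong to the other, and the smaller values of Ces1b are the less certain. Gm45910 itself, which lies between Ces1c and Ces1d, had 1 read in each control and 4 and 0 in Yap CKO 1 and 2.

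**Figure D2:**
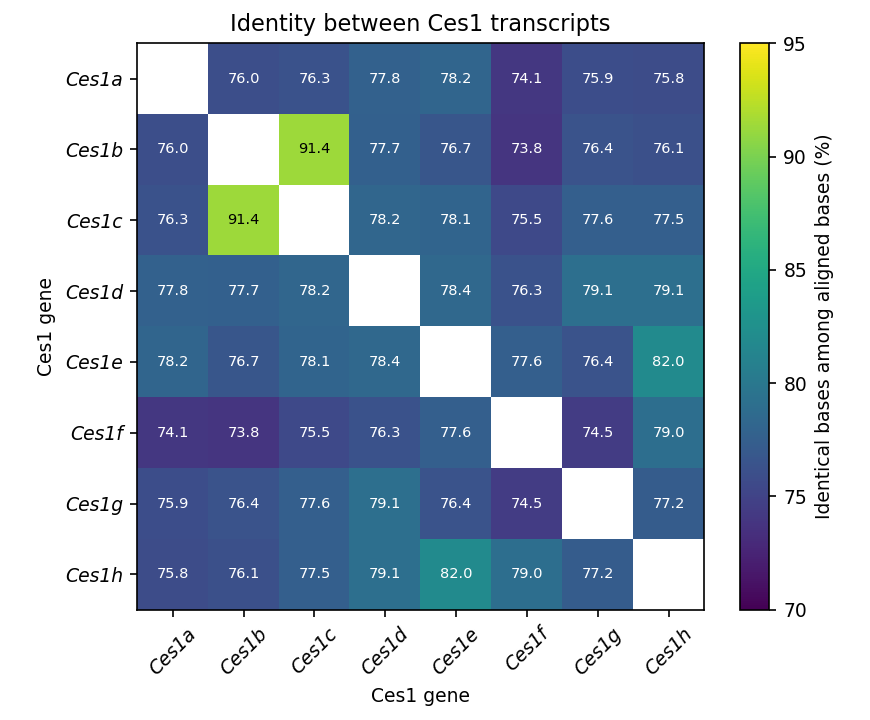
Percent of identical bases among aligned bases for each pair of Ces1 main transcripts (global alignment, gaps left out). The pair of Ces1b and Ces1c, at 91.4%, stands above all others, which lie between 73.8% and 82.0%.

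The likeness extended to the DNA before their start sites. The 250 bases before the outermost annotated start are shown for these 2 genes because they are the members with the largest differences (RefSeq, GRCm38.p6, the same assembly as mm10, written 5′ to 3′ on the minus strand). They lie at chr8:93080018-93080267 and chr8:93131284-93131533. Capitals mark the longest run of bases that the 2 windows share, 58 bases long.
Ces1b: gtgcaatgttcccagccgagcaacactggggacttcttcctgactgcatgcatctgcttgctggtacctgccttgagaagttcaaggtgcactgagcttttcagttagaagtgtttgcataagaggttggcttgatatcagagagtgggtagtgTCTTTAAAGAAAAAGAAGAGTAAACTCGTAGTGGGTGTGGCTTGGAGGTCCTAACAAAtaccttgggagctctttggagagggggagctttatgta
Ces1c: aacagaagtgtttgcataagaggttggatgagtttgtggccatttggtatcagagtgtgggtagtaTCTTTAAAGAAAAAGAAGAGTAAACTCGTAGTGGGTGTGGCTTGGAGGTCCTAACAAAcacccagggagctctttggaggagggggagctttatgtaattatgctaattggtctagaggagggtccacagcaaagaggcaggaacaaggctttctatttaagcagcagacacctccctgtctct
The run begins 96 bases before the start of Ces1b and 184 bases before that of Ces1c. It was found in 3 of the 32817 promoter windows of the RefSeq table, all of them windows of Ces1b or Ces1c. Where the 2 windows could be aligned, 137 of 147 bases were identical (93.2%). For the other pairs among the 6 members with an entry (Ces1a, Ces1b, Ces1c, Ces1e, Ces1g and Ces1h) identity was 62.7% to 69.7% and the longest shared run 14 bases.

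A search of these 6 windows on both strands for 4 short motifs gave few matches. The FOXA-type motif TGTTTGC occurs in the windows of Ces1b and Ces1c, before the capitals, and in 4.3% of all windows of that length. In both it lies within the same stretch of bases, identical in the 2 windows, so these matches are not independent. The CDX-type motif TTTATGG occurs in the Ces1g window and in 2.43% of all windows. Neither the HNF4 motif CAAAGTCCA (0.384% of windows) nor the TEAD motif GGAATG (12.6%) occurs in any of the 6. A match is a run of letters, and binding was not measured.

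Ces1d (ENSMUSG00000056973, chromosome 8, 93166068 to 93197838), the triacylglycerol hydrolase gene, was the most abundant Ces1 gene in this tissue. Control 1 held 491 and control 2 held 359 normalized counts, against 782 and 704 in the Yap CKO libraries. The groups did not overlap, and the gap between them (359 to 491 against 704 to 782) was larger than the spread within either. Group means were 425 ± 93.6 and 743 ± 55.1 (SD, n = 2), and they differed by 0.82 on the log2 scale. Counting error is small here, with 1.72 times as many reads (1.58 to 1.87). At most 1.28% of its 50-base windows, and none of its 100-base windows, occur in a transcript of another gene. Gm45909, an unclassified transcript on the same strand inside Ces1d, had 4 and 0 reads in the controls and 12 in each Yap CKO library.

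Ces1f (ENSMUSG00000031725), whose product hydrolyses triacylglycerol as well, did not share this difference. Its levels were 135 and 125 (controls) and 105 and 131 (Yap CKO), so the groups overlapped, with means of 130 ± 6.77 and 118 ± 18.8 (SD, n = 2). The ratio of its reads was 0.908, with an interval of 0.758 to 1.09. Ces1g (ENSMUSG00000057074), studied for its part in liver lipid metabolism, had levels of 29.1 and 24.6 (controls) and of 22.1 and 32.6 (Yap CKO). Its groups overlapped too, and the ratio of reads was 1.02 (0.685 to 1.51).

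The other 3 members stayed below a mean of 10 normalized counts, the level below which genes were not tested. Ces1e, the egasyn gene, had 4 and 9 reads in the controls and 8 and 9 in Yap CKO. Its partner Gusb, the gene of beta-glucuronidase, was far more abundant at 1918 ± 237 and 1960.5 ± 13.4 normalized counts (SD, n = 2) and did not pass the test (log2 change 0.037 ± 0.11, limma adjusted p = 0.888). Ces1a had 2 and 0 reads in the controls and 5 and 2 in Yap CKO. Ces1h had 5 and 1 reads in the controls and 4 in each Yap CKO library. At this depth no difference was detectable for any of the 3: the counting intervals of their ratios were 0.534 to 2.61 for Ces1e, 0.595 to 30.8 for Ces1a and 0.362 to 4.16 for Ces1h. Ces1a and Ces1h overlap the opposite-strand transcripts Gm45463 and Gm45765, each with at most 1 read per library, and the sources used here do not state the strand setting of the counts.

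In all, 3 of the 8 members had both Yap CKO libraries above both controls and none had both below, where 21.1% of the 33288 genes with a read were above and 20.5% below. The same 3 were among the 5 members that passed the filter on low values, where 25.2% of genes tested were above and 25.6% below. Of those 5 only Ces1c was called higher (limma, adjusted p under 0.05 over all 19472 genes tested) and 0 were called lower, where 1.19% of all genes tested were called higher, 1.15% lower and 2.33% in either direction. Ces1b and Ces1c passed the filter only through Yap CKO. The calls moved with the method: Ces1b, Ces1c and Ces1d were all called by DESeq2, without control 1 and without control 2, and none of the members was called without a filter, without limma's intensity trend, without Yap CKO 1 or without Yap CKO 2. Since Ces1c was chosen from this contrast, nothing is read from these counts. The median log2 difference was 0.62 over all 8 members and 0.013 over all genes with a read. A whole-lung library cannot tell a change in the number of cells of a type from a change in RNA per cell.

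Summed over the cluster, control 1 had 670, control 2 had 524, Yap CKO 1 had 1178 and Yap CKO 2 had 1044 normalized counts, with no overlap. Its make-up differed between the groups. Ces1c took 0 of 691 cluster reads in control 1, which allows a share of up to 0.434%, and 0.67% of 448 reads in control 2 (exact 95% binomial interval 0.138% to 1.94%). It took 16.5% of 1225 reads in Yap CKO 1 (14.5% to 18.7%) and 12.9% of 1120 in Yap CKO 2 (11.0% to 15.1%). Ces1d held 73.4% and 68.5% in the controls and 66.4% and 67.4% in Yap CKO. The share of Ces1f was 20.1% and 23.9% in the controls and 8.90% and 12.6% in Yap CKO, a lower share of a larger sum at overlapping levels of the gene itself.

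**Figure D3:**
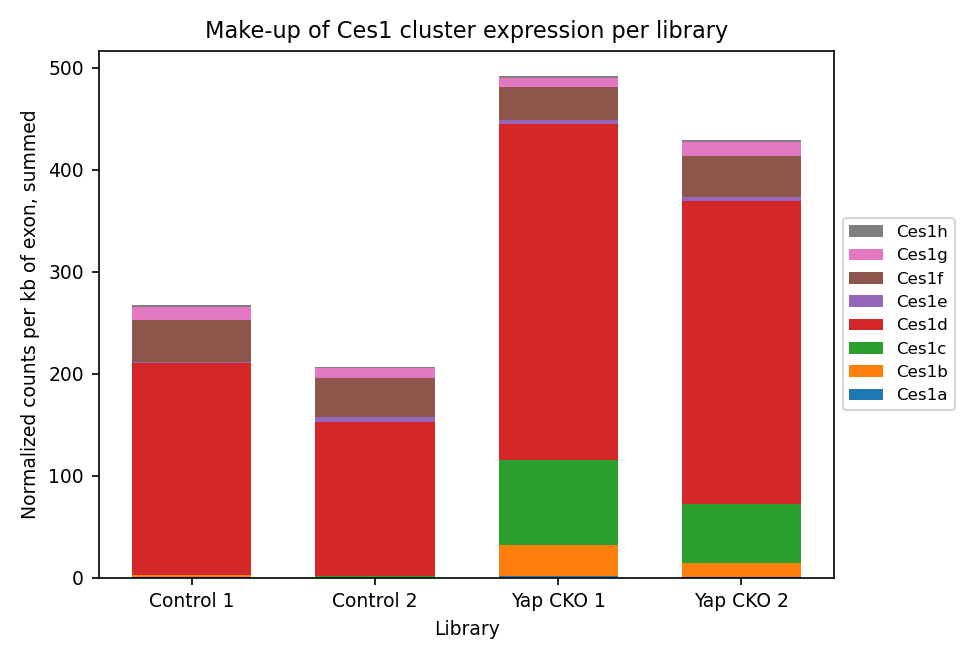
Normalized counts per kb of exon of the 8 Ces1 genes, stacked for each library (bars start at 0). Ces1d is the largest part in every library, and the parts of Ces1c and Ces1b are visible only in the Yap CKO bars, where Ces1c stands at 83.6 and 58.2 per kb.

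Protein-coding genes around the cluster were examined as well. Of 18 within 1 Mb, 13 were tested, 0 rose and 1 fell, with 3 at an unadjusted p under 0.05 and a median log2 change of -0.059. Over all 19472 genes tested, 3672 had an unadjusted limma p under 0.05 and 2.33% were called. Counts of this kind in the lists below stand against the same background, and nothing is read from them. The fall was in Irx5, a homeobox gene 644 kb before Ces1a and the outermost gene of the window on that side, from 561 ± 29.1 to 344.5 ± 4.51 (SD, n = 2; log2 change -0.70 ± 0.12 SE, limma adjusted p = 0.0395). That call ended under equal totals (adjusted p = 0.0512), without a filter (0.0999), without the intensity trend (0.119) and without Yap CKO 1 (0.404) or Yap CKO 2 (0.329). The nearest genes before Ces1a are Slc6a2, the noradrenaline transporter gene, at 38.7 ± 8.12 and 24.5 ± 14.2, Capns2 at 8.65 ± 2.65 and 11.9 ± 2.27, and Lpcat2, a phospholipid-remodelling acyltransferase gene, at 110 ± 23.5 and 160 ± 4.53 (adjusted p = 0.443, 0.677 and 0.228 by limma). After Ces1h come Ces5a, with 0 reads in the controls and 2 and 1 in Yap CKO, and Gnao1, a G protein subunit gene (522 ± 328 and 358 ± 88.8, adjusted p = 0.659). The metallothionein genes Mt1 and Mt2, also within the window, stood apart in control 1 alone. Mt1 was at 777 there and at 87.5 to 112 in the other 3 libraries, and Mt2 at 290 against 18.7, 17.3 and 13.1. Both were picked after their values were seen.

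The calls named outside the cluster depended on which pair set the spread. Of 33 such genes, all kept the call without control 1 and without control 2, 0 kept it without Yap CKO 1 and 2 kept it without Yap CKO 2. With a knockout library left out the spread comes from the control pair alone, and only 2 and 7 of all 19472 genes were called, against 2459 and 2458 without a control. The log2 changes of the 33 kept their direction in all 4 of these fits and moved by at most 22.1% without a Yap CKO library and 24.4% without a control. The 33 were called in these same libraries for differences large against the spread within pairs. Their kept direction follows largely from that choice and is not a check. With all 4 libraries, 13 kept the call without a filter on low values and 3 without limma's intensity trend.

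**Figure D4:**
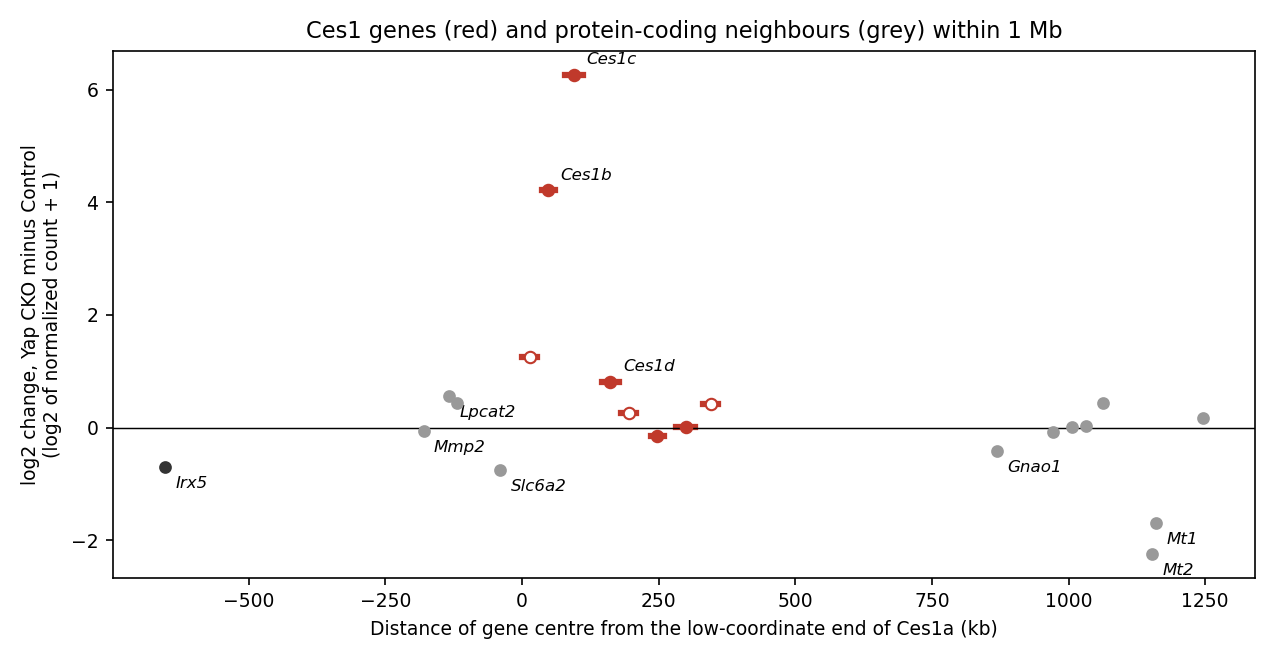
Log2 difference (Yap CKO minus Control, of normalized counts plus 1) against distance along the chromosome in kb from the low-coordinate end of Ces1a. Red marks are Ces1 genes with their extent (open circles, below the filter), grey points are tested neighbours and the dark point is Irx5. The high values of Ces1c (6.26) and Ces1b (4.21) sit between neighbours on both sides whose values run from -2.24 to 0.56.

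The other branches of the carboxylesterase family were barely expressed. Of 11 genes (Ces2a, Ces2b, Ces2c, Ces2e, Ces2f, Ces2g, Ces2h, Ces3a, Ces3b, Ces4a and Ces5a) only 2 reached the filter and neither was called by limma, edgeR or DESeq2, with 0 at an unadjusted p under 0.05 by limma. Ces2g stood at 52.3 and 76.0 in the controls and at 90.4 and 55.9 in Yap CKO, and its groups overlapped (log2 change 0.17 ± 0.32, limma adjusted p = 0.8205). Ces2b stood at 20.4 and 9.36 in the controls and at 15.4 and 14.9 in Yap CKO (0.12 ± 0.48, adjusted p = 0.921). Ces2a, Ces3a and Ces3b had 0 reads in all 4 libraries, and each of the remaining 6 had at most 2 reads in any library.

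Genes that work beside carboxylesterases in fat turnover were read next. Of 14 neutral lipid hydrolase genes 10 were tested, 0 rose and 1 fell, where 2.33% of all genes tested were called. Of the 10, 3 had an unadjusted p under 0.05, against 3672 of all 19472 genes tested. Both Yap CKO libraries lay below both controls for 6 of the 14 and above for 2. Of all genes with a read 20.5% lay below and 21.1% above, and nothing is read from such counts. The list summed to 5970 and 6481 in the controls, against 4806 and 4800 in Yap CKO (median log2 change over all 14, -0.10). Mgll, which encodes monoacylglycerol lipase, fell from 1135 ± 224 to 632 ± 13.8 (-0.83 ± 0.15, limma adjusted p = 0.0466; 0.0597 under equal totals). The endothelial lipase gene Lipg (-1.27, adjusted p = 0.0679), the lipoprotein lipase gene Lpl (-0.49, 0.179) and the lipase inhibitor gene G0s2 (-0.50, 0.313) did not pass. Of 15 genes for making and packaging neutral lipid 9 were tested, 1 rose and 0 fell (median over all 15, 0.21). For 6 of the 15 both Yap CKO libraries lay above both controls and for 1 below, beside the same 21.1% and 20.5% of all genes with a read. Soat1, the enzyme that esterifies cholesterol, rose from 2444.5 ± 0.62 to 3696 ± 141 (0.60 ± 0.09, adjusted p = 0.0277). Dgat1, Lcat and Plin2 did not pass (0.34, 0.45 and -0.19, with adjusted p of 0.231, 0.319 and 0.434).

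Of 21 other genes of drug and ester metabolism 15 were tested, 1 rose and 1 fell (median over all 21, 0.11). Aox3, an aldehyde oxidase gene, rose from 34.9 and 43.3 in the controls to 175 and 121 in Yap CKO (1.88 ± 0.27, limma adjusted p = 0.0262). Aldh1a1, a retinaldehyde dehydrogenase gene, fell from 529 ± 13.2 to 222 ± 54.0 (-1.27 ± 0.19, adjusted p = 0.0274). The paraoxonase genes Pon2 (0.51, adjusted p = 0.0538) and Pon3 (0.45, 0.335) did not pass. Of the 3 receptors that return proteins to the endoplasmic reticulum, Kdelr1 (-0.34, adjusted p = 0.166), Kdelr2 (-0.15, 0.484) and Kdelr3 (-0.34, 0.137), none passed limma's test.

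Among transcription factors of the liver and of xenobiotic sensing, 19 of 23 were tested, 3 rose and 0 fell, with a median of -0.13 over all 23. Hnf4a, a nuclear receptor of liver and gut epithelium, was at 0.97 and 1.17 in the controls, against 108 and 68.0 in the knockout libraries. It had 2 reads in control and 185 in Yap CKO, or 82.6 times as many (interval 22.5 to 687) (log2 change 5.39 ± 0.44, limma adjusted p = 0.00653). Hnf4a passed the filter only through Yap CKO. Foxa3 (52.4 ± 9.55 to 194 ± 75.2, adjusted p = 0.0414) and Cebpa (222 ± 10.3 to 421 ± 25.9, adjusted p = 0.0277 by limma) rose as well. Foxa2 went the other way, from 671 ± 54.2 to 452 ± 37.0, and did not pass (log2 change -0.57, limma adjusted p = 0.0793). By DESeq2 the calls in this list were 3 rises and 2 falls. The xenobiotic sensors Nr1i2 and Nr1i3 stayed below the filter in all 4 libraries. The part of these factors in the level of Ces1c was not tested.

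Ces1c is best known from liver, so markers of liver and gut were read beside it. Of 16 hepatocyte markers 7 were tested, 4 rose and 0 fell. Alb rose from 7.0 ± 1.68 to 210 ± 92.3 and Afp from 30.4 ± 18.3 to 898 ± 366 (limma adjusted p = 0.00669 and 0.00858). Ttr was at 0 and 4.68 in the controls and 111 and 76.4 in Yap CKO (adjusted p = 0.0316), and Apoa1 rose from 2.72 ± 1.11 to 52.4 ± 29.3 (adjusted p = 0.027). The list summed to 183 and 326 in the controls and to 1806 and 1046 in Yap CKO. The other 9, among them the fibrinogen genes Fga, Fgb and Fgg and the liver secretory genes Apob and Ahsg, stayed below the filter in a range of 0 to 12.9 in any library. Over all 16 the median log2 change was 0.58, or 0.38 with genes at 0 in the controls set to their bounds, and Alb, Ttr and Apoa1 passed the filter only through Yap CKO. Cps1, a urea cycle gene, was at 58.1 and 112 in the controls and 5.77 and 23.3 in Yap CKO (limma adjusted p = 0.0963). It was called lower by DESeq2 (adjusted p = 0.00866), without control 1 (0.00543) and without control 2 (0.0167).

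Of 11 intestinal secretory markers 9 were tested and all 9 rose, 6 of which passed the filter only through Yap CKO. Guca2a, the guanylin gene, Reg4 and the trefoil gene Tff3 had 0 reads in both controls and were at least 273-fold, 104-fold and 53.2-fold higher in Yap CKO (over the group's floor of 3 reads per library). Agr2, Fcgbp and Spdef, genes of mucus cells, rose by 6.56, 5.10 and 3.41 on the log2 scale (limma adjusted p = 0.00669, 0.00619 and 0.00507). The median over all 11 was 5.10, also with the genes at 0 set to their bounds, and the list summed to 94.97 and 65.5 in the controls and to 3858 and 2652 in Yap CKO. Of 12 enterocyte markers 3 were tested and none passed limma's test (1 at an unadjusted p under 0.05). The median over all 12 was 0.070, and the list summed to 263 and 495 in the controls and to 531 and 343 in Yap CKO. Alpi, Sis, Fabp2 and Apoa4, markers of mature enterocytes, had 0 reads in every library. Vil1, below the filter, had 6 and 3 reads in the controls and 18 and 14 in Yap CKO. Cdx2 had 0 reads in the controls, 37 in Yap CKO 1 and 7 in Yap CKO 2. Its mean was at least 6.56-fold higher in Yap CKO (limma adjusted p = 0.0793), mostly through Yap CKO 1. Cdx2 passed the filter only through Yap CKO. Of 8 measured stomach markers 3 were tested and all 3 rose, Gkn3 (3.57), the mucin gene Muc5ac (1.78) and the pepsinogen gene Pgc (2.23). The other 5, Tff1, Tff2, Gkn1, Gkn2 and Atp4a, stayed below the filter. Over all 8 the median was 1.76, or 0.446 with genes at 0 in the controls set to their bounds. The list summed to 138 and 203 in the controls and to 869 and 776 in Yap CKO. The part of these cell types in the Ces1c and Ces1b values was not tested.

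Markers of fat, kidney and macrophages, where carboxylesterases are also known, did not pass the test. None of the 3 adipocyte, 2 kidney tubule or 8 macrophage markers tested passed limma's test (0, 1 and 1 at an unadjusted p under 0.05, with medians over the 8 genes of each list of 0.12, 0 and -0.20). The adipocyte markers Adipoq, Plin1, Lep and Cidec had 0 to 1.86 normalized counts in every library. Ptprc (-0.73), Cubn (-0.91) and Lrp2 (-0.35) had adjusted p of 0.202, 0.263 and 0.291.

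Of 9 alveolar type 2 cell markers, the surfactant-making lineage, 8 were tested, 5 rose and 0 fell (median over all 9, 0.97), and the list summed to 5703 and 6211 in the controls and to 13490 and 11724 in Yap CKO. The surfactant genes Sftpa1, Sftpb and Sftpc rose by 3.96, 2.81 and 0.97 (limma adjusted p = 0.00571, 0.00507 and 0.00909), and Slc34a2 and Lamp3 by 3.55 and 1.36. Their part in the Ces1d values was not tested. Of 3 tested club cell markers 1 fell, Scgb1a1 (87.4 ± 24.4 to 22.7 ± 0.84, adjusted p = 0.0363). Scgb3a2 (0.77, limma adjusted p = 0.398) and Cyp2f2 (1.14, 0.335) went the other way and did not pass. The median over all 4 club cell markers was 0.76. Of the 10 lung genes Fgf10 rose (1.07) while Shh (-1.86) and Sox2 (-0.91) fell. The heart muscle markers did not separate the groups: without control 1 the calls among these 14 were 14 falls, and without control 2 they were 7 rises. The Ces1c difference ran from 5.18 to 7.35 when each library in turn was left out.

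**Figure D5:**
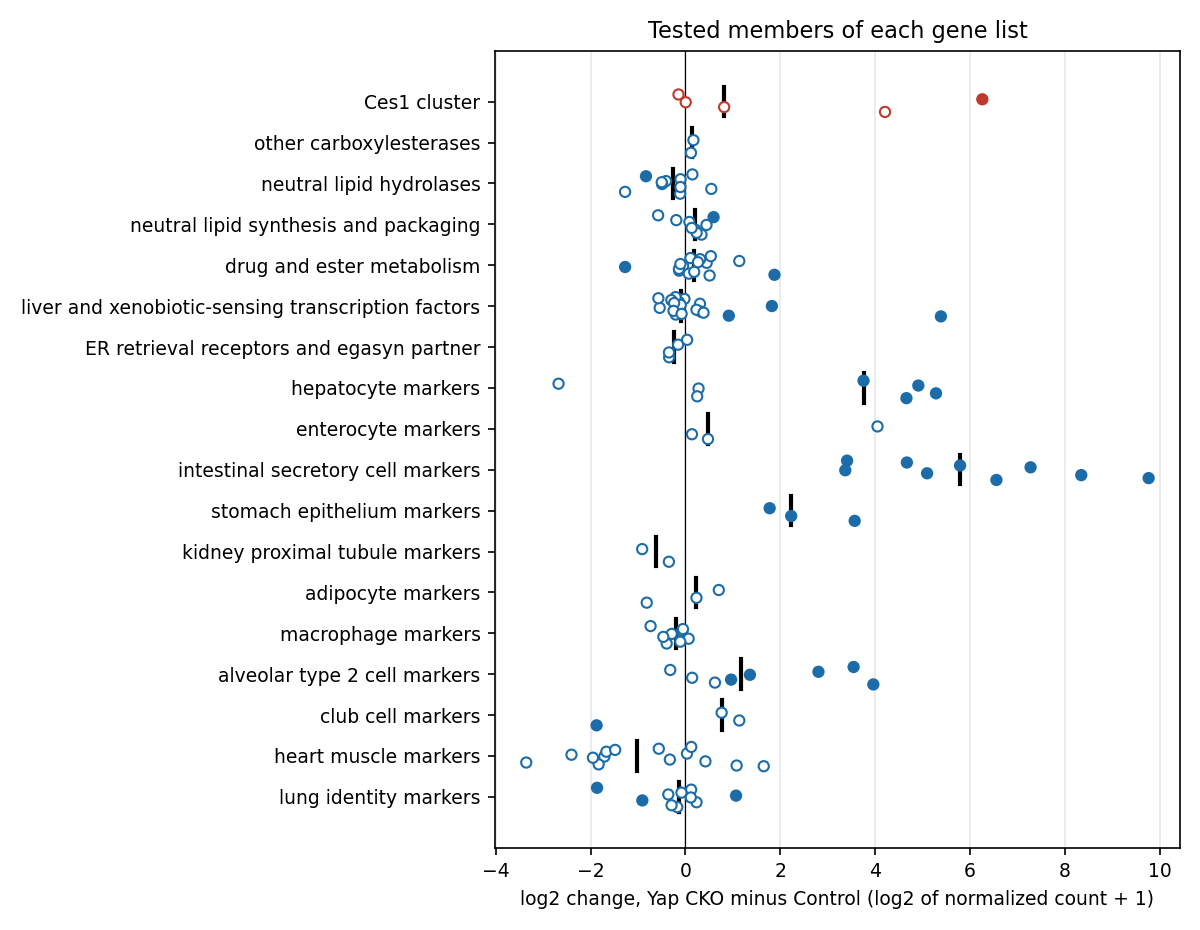
On the horizontal axis, the log2 change from Control to Yap CKO of each tested member of each gene list, filled where limma's adjusted p is under 0.05, with a black bar at the median of the tested members. The Ces1 genes (red) run from -0.14 for Ces1f to 6.26 for Ces1c, and the intestinal secretory markers from 3.37 to 9.77.

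The pattern of Ces1c over the 4 libraries was most like those of Atoh1, Agr2, Ttr, Npy and Ern2 among 14538 other protein-coding genes tested. Likeness is the distance between log2 profiles after each gene's own mean is removed, over 4 libraries, so it reflects mostly the size of the group difference. Agr2, a folding enzyme of mucus cells, was at 0.97 and 4.68 in the controls and at 419 and 236 in Yap CKO. Atoh1, the fate factor of secretory cells, was at 0.97 and 5.85 in the controls and 225 and 183 in Yap CKO. Ern2, a stress sensor of mucus cells, stood at 0 and 1.17 in the controls and at 77.9 and 51.3 in Yap CKO. The neuropeptide gene Npy was at 0 and 1.17 in the controls and 96.1 and 50.3 in Yap CKO. Afp ranked 6 and Hnf4a 7, Alb 13, Ces1b 76 and Ces1d 671 in this order.

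The 2 Yap CKO libraries did not differ alike for all members. Yap CKO 1 over Yap CKO 2 was 2.17 for Ces1b and 1.44 for Ces1c (above) and 1.11 for Ces1d (1.00 to 1.23), while it was 0.797 for Ces1f (0.615 to 1.03) and 0.678 for Ces1g (0.382 to 1.18). The same ratio was 1.90 for Alb (1.56 to 2.33), 1.81 for Afp (1.65 to 1.99), 1.58 for Hnf4a (1.17 to 2.16), 2.49 for Tff3 (1.97 to 3.15), 1.78 for Agr2 (1.52 to 2.08), 1.48 for Sftpb (1.39 to 1.57), 1.21 for Guca2a (1.10 to 1.33) and 1.00 for Sftpc (0.959 to 1.05). For Cebpa it was 1.09 (0.955 to 1.25). Ces1b and Ces1c were higher in Yap CKO 1, as were Alb, Afp, Hnf4a, Tff3, Agr2, Guca2a and Sftpb. Ces1d was barely so, with a lower limit of 1.005. The summed heart muscle markers were higher there too (11095 against 1995). With only 2 libraries a shared direction does not link genes, and its cause was not tested. The intervals of Ces1f, Ces1g, Cebpa and Sftpc span equality.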

How the data were processed

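The authors deposited a table of normalized read counts, a non-negative signal per Ensembl gene, for 2 Control and 2 Yap CKO libraries of total lung. Per the submitters' processing notes the tools were edgeR 3.18.1, DESeq 1.16.0, Bowtie2 2.2.9 and featureCounts 1.5.0-p1, with build mm10, and no role or order is given. In each column 100% of values were whole multiples of the smallest value (within 0.001 reads), so the deposited signal is read counts divided by 1 factor per library, and whole reads were recovered. Symbols, positions and exon lengths came from GENCODE M21 (52489 of 52636 identifiers matched). Genes with a mean of at least 10 were tested as log2(normalized count + 1) with limma 3.58.1 in R 4.3.3 (intensity trend, two-sided, Benjamini-Hochberg adjustment), with 2 residual degrees of freedom and 4.54 added by moderation. This scale understates the change of genes near 0. edgeR 4.0.16 (quasi-likelihood, 404 calls against 454) and DESeq2 1.42.0 were run on the recovered reads. No replicates were merged for the tests, since their counts differed beyond sampling (chi-square per degree of freedom 22.1 for Control, 6.64 for Yap CKO). The ratios of reads between the groups do sum the 2 libraries of each group. Their intervals therefore leave out the spread between replicates and are too narrow as a measure of it. Scripts were tested on simulated data. The members, lists, motifs and tests were chosen with earlier results of these data known. The text names all members, the other carboxylesterases, called list members (at most 6 a list, made up to 4 by smallest p), up to 3 nearest neighbours on each side and the 5 genes most like Ces1c. Sequences are RefSeq's. Some items are not reported here.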

Additional observations from a re-analysis of the deposited data

How the results depend on the processing

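The Ces1c difference of 6.26 and the Ces1b difference of 4.21 became 4.68 and 2.76 with a pseudocount of 5. The Ces1d difference of 0.82 was 0.80 by edgeR and by DESeq2 and 0.88 under equal totals. The filter, trend and block settings cannot move these estimates. Without each library in turn the Ces1c, Ces1b and Ces1d differences were 5.18 to 7.35, 3.07 to 5.35 and 0.59 to 1.04. Over all genes 454 were called (50.9% higher; 62.0% under equal totals, which shift all genes by 0.062), 1037 by DESeq2, 56 without a filter, 6 without the intensity trend and 2 to 2459 without each library in turn. Among all listed genes other than Ces1, 32 were called, 14 without a filter, 3 without the trend and 0 to 60 without each library. Of the neighbours 1 was called, 0 under equal totals, without a filter, without the trend or with the replicate block, and 0 to 4 without each library. A lone library of a group is assumed to vary like the other group.

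The labels' replicate numbers do not pair the samples by any stated batch: the deviations of the libraries numbered 1 correlated at -0.36 over 19472 genes. With the replicate number as a block 342 genes were called, and with the crossed pairing, chosen after seeing the data, 972. The block ended the calls of Irx5 (adjusted p = 0.0661), Scgb1a1 (0.0578) and Sox2 (0.0503), and with it Cps1 was called lower (0.0362) and 3 Ces1 genes (Ces1b, Ces1c and Ces1d) were called higher in place of 1. Some named genes that were not called changed sign when a library was left out, with ranges over the 4 such fits of -3.65 to 0.23 for Actc1, -0.79 to 0.0061 for Adgre1, -1.09 to 0.28 for Gnao1, -0.40 to 0.67 for Anpep, -0.40 to 0.64 for Ces2b, -0.17 to 0.51 for Ces2g, -0.63 to 2.04 for Fabp4, -0.089 to 0.16 for Gusb, -0.60 to 0.027 for Lyz2 and -0.58 to 0.13 for Yap1. The causes were not tested. A length from a protein table was not used here, and the annotated coding length, added after seeing the data, took its place. Depth limits Ces1a, Ces1e and Ces1h, with at most 9 reads in any library.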
